A study of Rattus norvegicus with 28 samples.

Results

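Oxt and Avp, the genes of the peptide hormones oxytocin and vasopressin, were followed through 28 whole-brain RNA libraries of inbred rats. They were taken from the deposited count tables by their identifiers, ENSRNOG00000021225 for Oxt and ENSRNOG00000021229 for Avp, and are 2 of 32623 gene rows. The study crossed strain with sex and stage of the estrous cycle. SHR/OlaIpcv (SHR), a strain of the spontaneously hypertensive rat, was set against BN-Lx/Cub (BN-Lx), a strain of Brown Norway origin. Each strain had 4 females at pre-estrus, 4 at estrus, 4 at post-estrus and 2 males, and no treatment is named for any group. The titles call each library a biological replicate, and whole brains were extracted, so each was taken as 1 animal. The extraction protocol mentions alcohol-naïve male rats, while 24 of the samples are labelled female. The sample labels were followed.

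Both hormones are short cyclic peptides cut from precursors that also contain a neurophysin, the protein that carries the peptide in its granule. Large neurons of the supraoptic and paraventricular nuclei of the hypothalamus make most of them and release them from the posterior pituitary into the blood, where oxytocin drives milk ejection and contractions of the uterus and vasopressin makes the kidney retain water. Smaller neurons release both within the brain, and vasopressin is also made in the suprachiasmatic nucleus, the circadian clock. Such neurons are a small share of a whole brain. In bulk RNA, fewer cells of a type and less RNA per cell cannot be told apart.

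The genes are neighbours on rat chromosome 3 in the RefSeq annotation of GRCr8, with 0 annotated genes between them. They point towards each other, Oxt on the plus strand and Avp on the minus strand. Mrps26 and LOC134486445 follow on the Oxt side, and Ubox5 and Fastkd5 on the Avp side. The 250 bases before each start are shown as a description, and their link with the levels was not tested. They come from RefSeq, are written on the strand of the gene, and lie at chr3:138235504-138235753 for Oxt and chr3:138248523-138248772 for Avp. Capitals mark matches to AGGTCA, the core sequence of sites for nuclear receptors, and to TGACG, the core of a cyclic AMP response element, on either strand.
Oxt: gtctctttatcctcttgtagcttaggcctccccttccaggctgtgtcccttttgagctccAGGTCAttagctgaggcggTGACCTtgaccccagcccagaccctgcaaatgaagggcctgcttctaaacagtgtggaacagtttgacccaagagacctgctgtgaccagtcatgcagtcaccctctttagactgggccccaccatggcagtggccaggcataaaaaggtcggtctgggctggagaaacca
Avp: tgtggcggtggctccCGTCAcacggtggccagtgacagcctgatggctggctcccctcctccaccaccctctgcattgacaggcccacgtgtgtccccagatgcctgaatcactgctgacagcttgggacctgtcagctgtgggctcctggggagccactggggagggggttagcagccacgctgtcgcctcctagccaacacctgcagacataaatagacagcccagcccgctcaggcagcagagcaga
The Oxt stretch held AGGTCA at bases -190 to -185 and its reverse complement at -171 to -166, counted back from the start. At least 1 match to AGGTCA was present in 14.06% of 33469 RefSeq promoters of that length, and at least 2 in 1.273%. The Avp stretch held TGACG on the opposite strand at -235 to -231, a motif present in 18.22% of the promoters. The exact letters TATAAA, a form of the TATA box, matched neither stretch and 12.93% of all promoters. Other forms of the TATA box were not searched for. GC content was 55.2% for Oxt and 63.6% for Avp. These matches describe the letters only.

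The libraries held 43410563 to 90667238 expected counts each, of which spike-in RNAs took 1.46% to 6.05% and the most abundant gene row 13.2% to 35.9%. Library names end in b35 (15 libraries) or b37 (13 libraries), a suffix whose meaning the labels do not give. Both suffixes occur in every group except the BN-Lx males, which are both b35. SHR post-estrus has 3 b35 libraries and 1 b37 library, and BN-Lx post-estrus has 1 b35 library and 3 b37 libraries. BN-Lx estrus replicate 2, BN-Lx post-estrus replicate 5 and SHR post-estrus replicate 13 resembled the other libraries of their strain least over all genes, with median correlations of log2 CPM of 0.922 to 0.933.

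Both genes were detected in every library at a low level. Expected counts, RSEM's estimates of reads per gene, ran from 2 to 259 for Oxt with a median of 83.0, and from 14 to 465 for Avp with a median of 132. Per length, in TPM, RSEM's estimate of transcript abundance scaled to library size, Avp had a median of 2.95 (0.30 to 8.20) and Oxt a median of 2.12 (0.04 to 6.04), and Avp was the higher of the pair in 21 of 28 libraries. The deposited transcript lengths were 575 bases for Avp and 534 for Oxt. The counts are not fully independent. In 14 libraries both expected counts had fractions while their sum was whole, within 0.005, as it was in all 28. In the other 14 both counts were whole. Where the counts had fractions, the division of reads between Oxt and Avp is therefore an estimate.

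Levels within a gene are given as CPM, the count scaled to the library size after TMM adjustment. In SHR females, Oxt stood at 2.51, 2.25, 1.10 and 1.25 CPM at pre-estrus (replicates 8, 10, 11 and 12). At estrus it was 1.95, 1.37, 0.974 and 1.69 CPM (replicates 5, 6, 9 and 11), and at post-estrus 0.639, 2.14, 1.80 and 1.2 CPM (replicates 6, 8, 12 and 13). The stages overlapped, and the lowest of the 12 SHR females was post-estrus replicate 6. In BN-Lx females, Oxt stood at 1.27, 2.58, 0.771 and 1.52 CPM at pre-estrus (replicates 3, 5, 7a and 7b). At estrus it was 0.4, 3.73, 3.71 and 2.40 CPM (replicates 2, 4, 8 and 9), and at post-estrus 0.0368, 3.05, 1.35 and 0.429 CPM (replicates 3, 4, 5 and 6). The highest and the lowest female were thus both BN-Lx, and high and low libraries occurred within its estrus and its post-estrus group. The lowest value rests on an expected count of 2 (95% exact Poisson interval 0.242 to 7.22, counting error only). Males had 1.41 and 0.921 CPM in SHR, against 3.69 and 1.93 CPM in BN-Lx, and these ranges did not meet.

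Avp also ranged more widely in BN-Lx females than in SHR females. In SHR females it stood at 3.17, 3.34, 1.96 and 1.26 CPM at pre-estrus, at 2.89, 1.08, 1.45 and 2.79 CPM at estrus and at 1.76, 2.51, 1.97 and 2.64 CPM at post-estrus, with replicates in the order given for Oxt. In BN-Lx females it stood at 1.45, 2.23, 2.96 and 3.06 CPM at pre-estrus, at 0.243, 5.61, 5.21 and 4.49 CPM at estrus and at 0.312, 2.48, 0.894 and 0.984 CPM at post-estrus. In BN-Lx at estrus, 3 libraries lay above every other female library, while replicate 2 was the lowest of all. Males had 3.70 and 1.67 CPM of Avp in SHR, against 7.88 and 3.5 CPM in BN-Lx, and these overlapped.

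**Figure D1:**
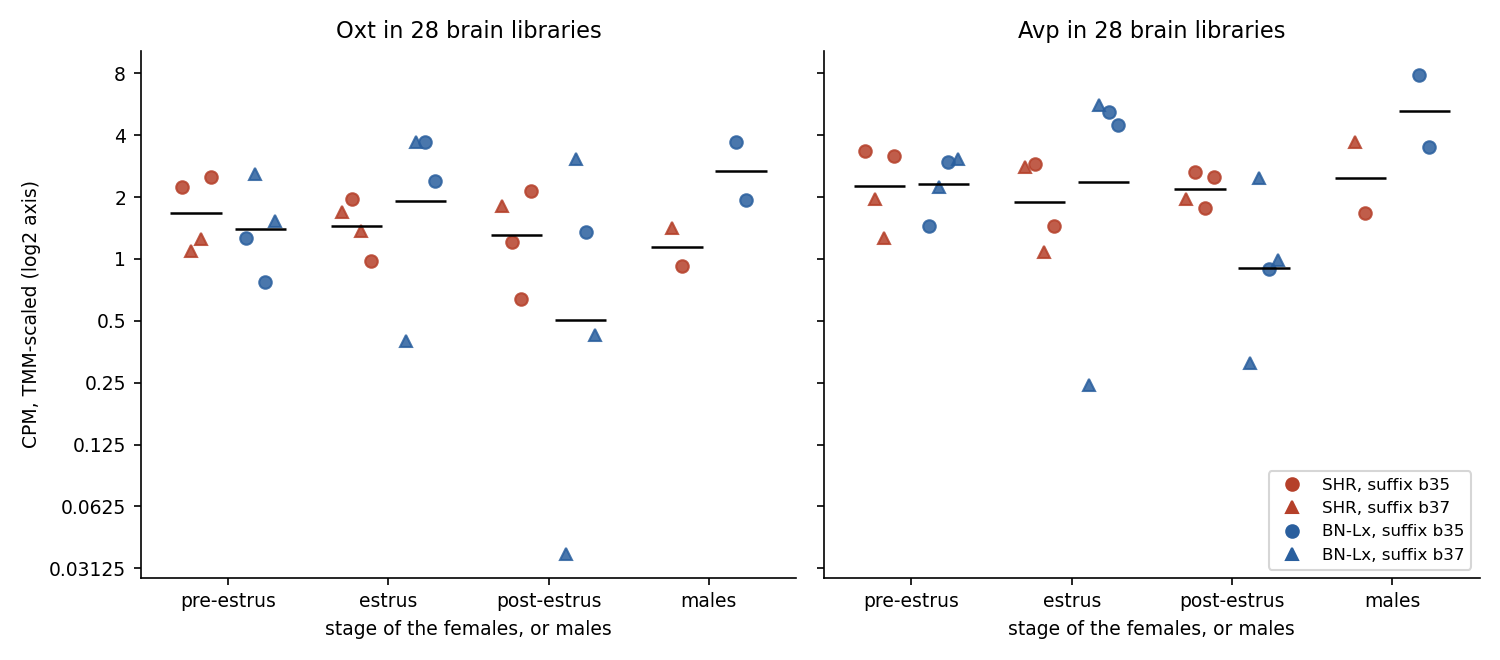
Levels of Oxt and Avp in CPM on a log axis, 1 point per library, for females by stage and for males in SHR and BN-Lx, with bars at the geometric mean of each group. SHR females lie between 0.639 and 2.51 CPM for Oxt, while BN-Lx females reach from 0.0368 to 3.73 CPM.

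Ordered by mean CPM from low to high, Oxt ran from SHR males (1.16 ± 0.344, n = 2) and BN-Lx post-estrus (1.22 ± 1.34, n = 4) through SHR post-estrus (1.45), SHR estrus (1.5), BN-Lx pre-estrus (1.54) and SHR pre-estrus (1.78) to BN-Lx estrus (2.56 ± 1.57, n = 4) and BN-Lx males (2.81 ± 1.24, n = 2; all ± are SD). Avp ran from BN-Lx post-estrus (1.17 ± 0.925, n = 4) through SHR estrus (2.05), SHR post-estrus (2.22), BN-Lx pre-estrus (2.42), SHR pre-estrus (2.43) and SHR males (2.68) to BN-Lx estrus (3.89 ± 2.47, n = 4) and BN-Lx males (5.69 ± 3.09, n = 2). For both genes, each of the 7 pairs of neighbours in this order overlapped and differed by less than the larger SD.

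Strain was the first comparison. Neither gene differed between SHR and BN-Lx females beyond the spread between animals. Oxt averaged 1.57 ± 0.573 CPM (SD) over the 12 SHR females, against 1.77 ± 1.30 CPM over the 12 BN-Lx females. Avp averaged 2.24 ± 0.759 CPM over the SHR females, against 2.49 ± 1.84 CPM over the BN-Lx females. With edgeR's quasi-likelihood test over all genes, the log2 fold change of SHR over BN-Lx was -0.12 for Oxt (SE 0.42, 95% interval -0.98 to 0.75, adjusted p = 0.932) and -0.04 for Avp (SE 0.36, interval -0.79 to 0.71, adjusted p = 0.979). An adjusted p under 0.05 was the threshold for a call. The same test called 9.41% of the 18134 genes tested. The intervals reach from 0.507 to 1.68 times the BN-Lx level for Oxt and from 0.577 to 1.64 times for Avp. Changes within them were not excluded. Within suffixes, the Oxt value was 0.04 in b35 and -0.22 in b37, and the Avp value 0.26 in b35 and -0.24 in b37. None of these 4 values was called. Without BN-Lx post-estrus replicate 4 the values were 0.21 for Oxt and 0.19 for Avp, so the sign of neither was settled.

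Stage by stage, the strain difference of Oxt was 0.20 at pre-estrus (SE 0.72), -0.77 at estrus (SE 0.71) and 0.22 at post-estrus (SE 0.73). For Avp it was -0.03 at pre-estrus (SE 0.61), -0.91 at estrus (SE 0.61) and 0.81 at post-estrus (SE 0.65). The lowest edgeR adjusted p among these 6 was 0.678, in comparisons that called 2.5%, 2.24% and 2.5% of all genes at the 3 stages. The groups overlapped at each stage for both genes. At pre-estrus the Oxt value was 1.22 within b35 and -0.78 within b37, and the Avp value 0.57 within b35 and -0.70 within b37. At estrus SHR was below BN-Lx for both genes in both suffixes, by -1.06 and -0.42 for Oxt and by -1.16 and -0.58 for Avp (b35, then b37). At post-estrus the Avp value was 1.36 within b35 and 0.57 within b37. The Oxt value there was -0.03 within b35 and 0.53 within b37, and it ran from -0.15 without BN-Lx post-estrus replicate 3 to 1.24 without BN-Lx post-estrus replicate 4. With the share of the most abundant gene row as a covariate, Oxt was at -0.50 at pre-estrus and at -0.28 at post-estrus. The test of the strain-by-stage interaction gave an edgeR adjusted p of 0.972 for each, with 0% of genes called and 267 genes at an unadjusted p under 0.05. DESeq2 called 1 gene for this interaction and limma 0. In b35 alone the interaction of Avp had an adjusted p of 0.0417, in a fit that called 30% of genes and had a single BN-Lx post-estrus library. In b37 alone it was 0.937.

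In males the strain difference was -1.27 for Oxt (SE 1.04, 95% interval -3.43 to 0.88, adjusted p = 0.650 with edgeR) and -0.98 for Avp (SE 0.90, interval -2.84 to 0.88, adjusted p = 0.684). The test called 0.8% of genes. Among the strain and stage pairs of groups, the ranges failed to meet for Oxt in males only, and with 2 animals a side that was so for 58% of all genes tested. In b35 alone, which leaves 1 SHR male against 2 BN-Lx males, the values were -1.61 for Oxt and -1.77 for Avp, neither of them called. Without BN-Lx male replicate 1 the values were -0.73 for Oxt and -0.28 for Avp. The strain-by-sex interaction was -1.16 for Oxt and -0.94 for Avp, with edgeR adjusted p-values of 0.788 and 0.793. It called 0% of genes, with 632 at an unadjusted p under 0.05, and DESeq2 called 3 genes and limma 0.

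**Figure D2:**
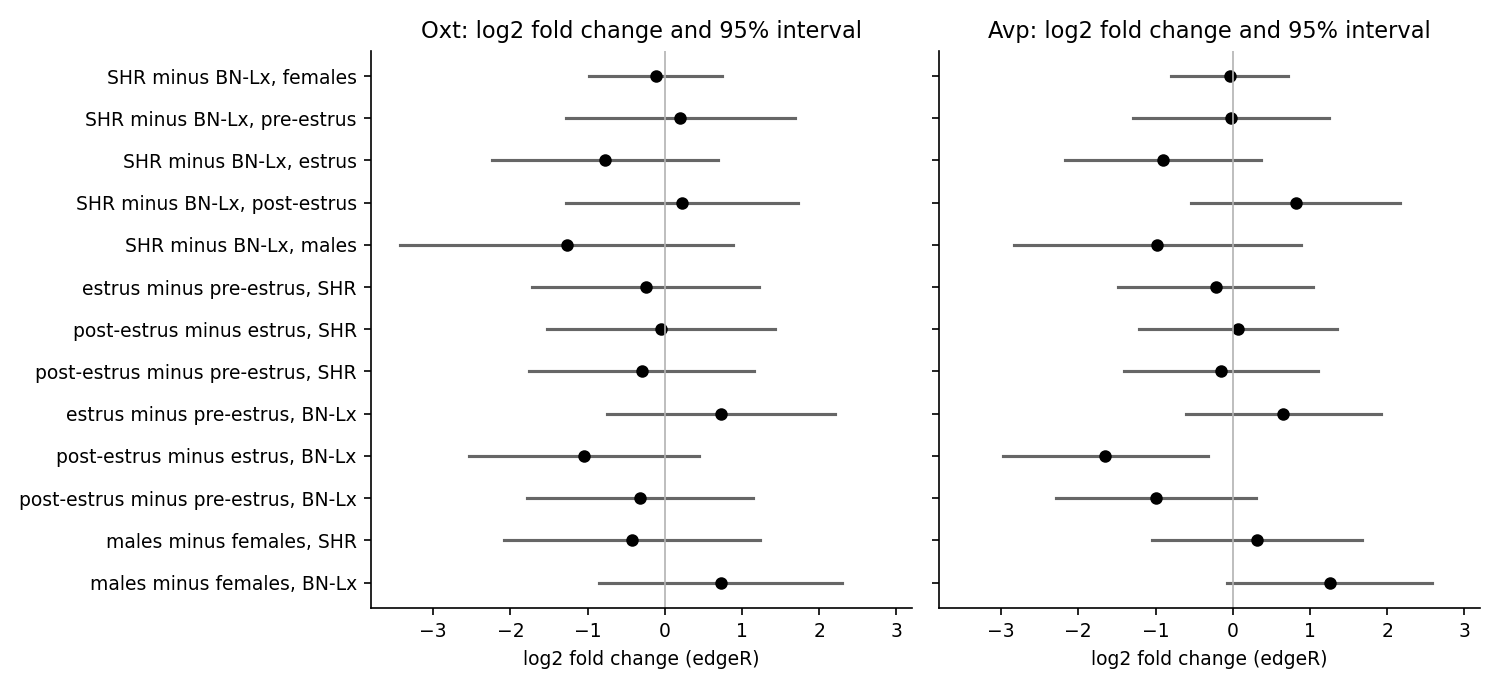
Fitted log2 fold changes of Oxt and Avp with 95% intervals from edgeR for the strain, stage and sex comparisons, in log2 units. Stage and sex contrasts over both strains and the strain-by-sex interaction are not drawn. Of the 36 intervals computed, drawn or not, 35 include 0. The exception is Avp at post-estrus against estrus in BN-Lx.

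Cycle stage was the second comparison. No stage contrast passed the threshold for Oxt or Avp over both strains, in SHR or in BN-Lx, and edgeR called 0% of all genes in each of these contrasts, in which 96 to 912 genes had an unadjusted p under 0.05. DESeq2 called 0 to 10 genes in them and limma 0 to 2. Over both strains, Avp differed by 0.22 between estrus and pre-estrus (SE 0.43), by -0.79 between post-estrus and estrus (SE 0.44) and by -0.57 between post-estrus and pre-estrus (SE 0.43). The values for Oxt were 0.24 (SE 0.50), -0.55 (SE 0.50) and -0.31 (SE 0.50) in the same order. The test for any difference among stages gave an unadjusted p of 0.556 for Oxt and 0.204 for Avp, and 291 genes had an unadjusted p under 0.05. DESeq2 called 2 genes and limma 0 in that comparison, Oxt and Avp not among them.

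In SHR the log2 fold changes between stages were -0.22 to 0.07 for Avp and -0.30 to -0.05 for Oxt. The widest stage contrast was in BN-Lx. There Avp averaged 1.17 ± 0.925 CPM at post-estrus and 3.89 ± 2.47 CPM at estrus (SD, n = 4 each). The log2 fold change was -1.65 (SE 0.64, 95% interval -2.98 to -0.32). Its unadjusted p was 0.0171 with edgeR, among 357 genes with an unadjusted p under 0.05, and its adjusted p was 1. In this contrast DESeq2 called 5 genes and limma 0, and Avp was not called by either. The ranges overlapped, since estrus replicate 2 lay below all 4 post-estrus libraries. Oxt in the same contrast was at -1.05 (SE 0.72, unadjusted p 0.160). Within suffixes, the Avp value was -2.44 in b35 (adjusted p = 0.0328 with edgeR), where post-estrus is a single library and 12.8% of genes were called, and -1.17 in b37 (adjusted p = 0.924). The b35 test for any stage difference in BN-Lx likewise called Avp (adjusted p = 0.0422) together with 15.5% of genes. Over all libraries, the Avp value ran from -2.37 without BN-Lx post-estrus replicate 4 to -1.24 without BN-Lx estrus replicate 4. The Oxt value ran from -2.09 without BN-Lx post-estrus replicate 4 to -0.67 without BN-Lx post-estrus replicate 3. The share of counts taken by the most abundant gene row was 22.5% to 35.9% in the 4 post-estrus libraries and 19.7% to 34.1% in the 4 estrus libraries. With that share as a covariate the Avp value was -1.22 (SE 0.63), and its part in the result was not tested further.

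Sex was the third comparison. Avp averaged 4.19 ± 2.62 CPM in males (SD, n = 4) and 2.36 ± 1.39 CPM in females (SD, n = 24), and the difference did not pass the test. The log2 fold change of males over females was 0.79 over both strains (SE 0.44, 95% interval -0.12 to 1.70, adjusted p = 1 with edgeR), 0.32 in SHR (SE 0.65) and 1.25 in BN-Lx (SE 0.64). Leaving out replicate 1 of the SHR males turned the SHR value to -0.52, and leaving out their replicate 2 gave 0.90. Within suffixes the SHR value was -0.60 in b35, with male replicate 2, and 1.04 in b37, with male replicate 1. Each rests on 1 SHR male, so suffix and animal cannot be told apart. The BN-Lx value was 0.55 and 1.73 when replicate 1 or replicate 2 of its males was left out. Oxt averaged 1.99 ± 1.21 CPM in the males, against 1.67 ± 0.985 CPM in the females, and its log2 fold change was 0.15 (SE 0.54). It was -0.43 in SHR and 0.73 in BN-Lx. The test called 0.0331% of genes over both strains, 0.0331% in SHR and 0.0276% in BN-Lx. Within b35, the difference over both strains was -0.03 for Oxt and 0.41 for Avp. No value over both strains could be had within b37, which holds no BN-Lx male.

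The sum of the reads of both genes does not depend on how RSEM divided them. Fitted as a single row, it was not called in any comparison. Its log2 fold change was -0.08 for SHR over BN-Lx females (SE 0.36, edgeR adjusted p = 0.950) and -1.38 for post-estrus over estrus in BN-Lx (SE 0.64, unadjusted p 0.0407, adjusted p = 1).

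The ratio of Oxt to Avp does not depend on how libraries are scaled. The log2 ratio of counts, with 0.5 added to each, averaged -0.51 ± 0.49 (SD) over the 12 SHR females, against -0.61 ± 1.04 over the 12 BN-Lx females, a difference of 0.09 (two-sided permutation test, p = 0.793, Benjamini-Hochberg adjusted over 3 tests 0.793). It averaged -1.04 ± 0.25 in males (SD, n = 4) and -0.56 ± 0.80 in females (SD, n = 24), a difference of -0.48 over strains (permutation p = 0.261, adjusted 0.782). The stages did not differ beyond the spread either (permutation p = 0.650, adjusted 0.793). All 4 males had a ratio below the median of the females, -0.57. The strain difference was -0.26 within b35 and 0.28 within b37.

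Although neither gene separated the groups, their levels moved together between animals. After group means were removed, log2 CPM of Oxt and Avp correlated over the 28 libraries with Pearson's r = 0.776 (permutation within groups, p = 0.00036) and Spearman's rho = 0.696 (p = 0.00086). Adjusted over the 7 relations computed, these p-values were 0.00252 and 0.00602. Without BN-Lx estrus replicate 2 and BN-Lx post-estrus replicate 3, the libraries farthest from the median of Oxt, r was 0.576 (permutation p = 0.0142). It was 0.656 in the SHR libraries (permutation p = 0.0127) and 0.797 in the BN-Lx libraries (permutation p = 0.00726). Within suffixes the test did not pass, with r = 0.503 in b35 (permutation p = 0.199) and 0.846 in b37 (permutation p = 0.105). Reads that RSEM divides between the genes also enter both values.

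**Figure D3:**
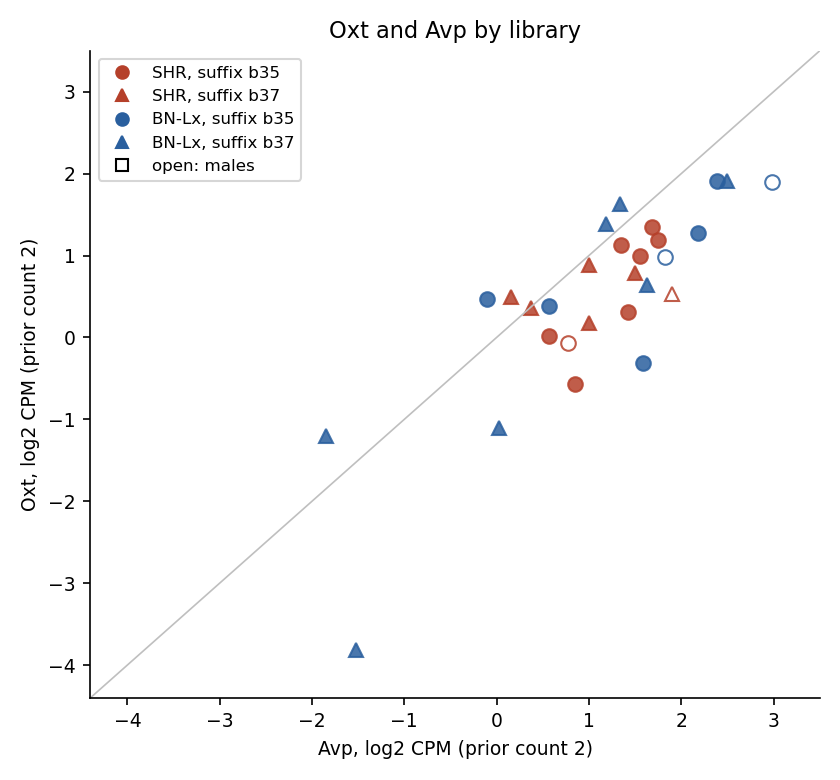
Oxt (vertical) against Avp (horizontal) in log2 CPM with a prior count of 2, 1 point per library, coloured by strain, with open symbols for males. The 28 libraries run from low to high in both genes, with r = 0.776 after group means were removed, and 2 BN-Lx females lie apart at the low end.

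The other 6 relations set Oxt and Avp against the library total, the share of the most abundant gene row and the spike-in share. None passed after adjustment. The strongest by unadjusted p was Avp with the share of the most abundant gene row (r = -0.50, permutation p = 0.0419, adjusted 0.147), which had r = -0.45 without the 2 libraries of most extreme share (permutation p = 0.156). In BN-Lx estrus replicate 2, where Avp was lowest, that share was 34.1%, against 19.7% to 25.8% in the other 3 libraries of the group. In BN-Lx post-estrus replicate 3, where Oxt was lowest, it was 26.7%.

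Of the 13994 genes whose mean reached 1 CPM, Avp was the gene most like Oxt by this correlation over the 28 libraries. The next was ENSRNOG00000017302 (r = 0.774). For Avp, Oxt came second at 0.776, behind ENSRNOG00000030091 (r = 0.800). Correlations above 0.5 were found for 1.96% of these genes with Oxt and for 6.95% with Avp. A correlation above 0.5 was therefore shared with many other genes. The pair's own r of 0.776 was exceeded by 0 genes for Oxt and by 1 for Avp. Gene names are not paired with identifiers in the sources used here.

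The spread between animals of a group was wide for both genes. The SD of log2 CPM within groups was 1.2 for Oxt and 1.06 for Avp, against a median of 0.313 over all genes tested and 3.81% and 5.93% of genes with a larger SD. Among the 500 genes closest in level the median SD was 0.443 for Oxt and 0.394 for Avp, and 19 and 26 of the 500 were more variable. The edgeR dispersion, as a coefficient of variation beyond counting error, was 67.8% for Oxt and 58.5% for Avp. By this measure 9.50% and 12.9% of all genes tested were more variable. The medians of the 500 genes closest in level were 30.0% for Oxt and 27.4% for Avp. Poisson counting error was 11.0% of the count in the median library for Oxt and 8.73% for Avp, reaching 70.7% for Oxt in the library with 2 counts.

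SHR females were closer together than BN-Lx females. The within-stage SD of log2 CPM was 0.603 in SHR and 1.66 in BN-Lx for Oxt, and 0.569 in SHR and 1.42 in BN-Lx for Avp, ratios of 0.364 and 0.401. Over all genes the median ratio was 0.759, and 3.67% and 5.33% of genes had smaller ones. The mean absolute deviation from the group median was 0.462 in SHR and 1.06 in BN-Lx for Oxt (two-sided permutation test, p = 0.0717, adjusted over both genes 0.143) and 0.442 in SHR and 0.751 in BN-Lx for Avp (permutation p = 0.505, adjusted 0.505). The difference in spread therefore did not pass the test for either gene. For Oxt it was -0.597 in all, 0.158 within b35 and -1.17 within b37. BN-Lx post-estrus in b35 and SHR post-estrus in b37 are 1 library each, which has no deviation from its own median by construction. The values within suffixes therefore cannot show whether the suffixes share a direction. Over both suffixes, the Oxt difference was -0.317 without BN-Lx post-estrus replicate 3 and -0.356 without BN-Lx estrus replicate 2. Leaving 1 library out gives its group an odd number, so that 1 library is itself the median. For Avp the difference of -0.309 became 0.04 without BN-Lx estrus replicate 2.

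**Figure D4:**
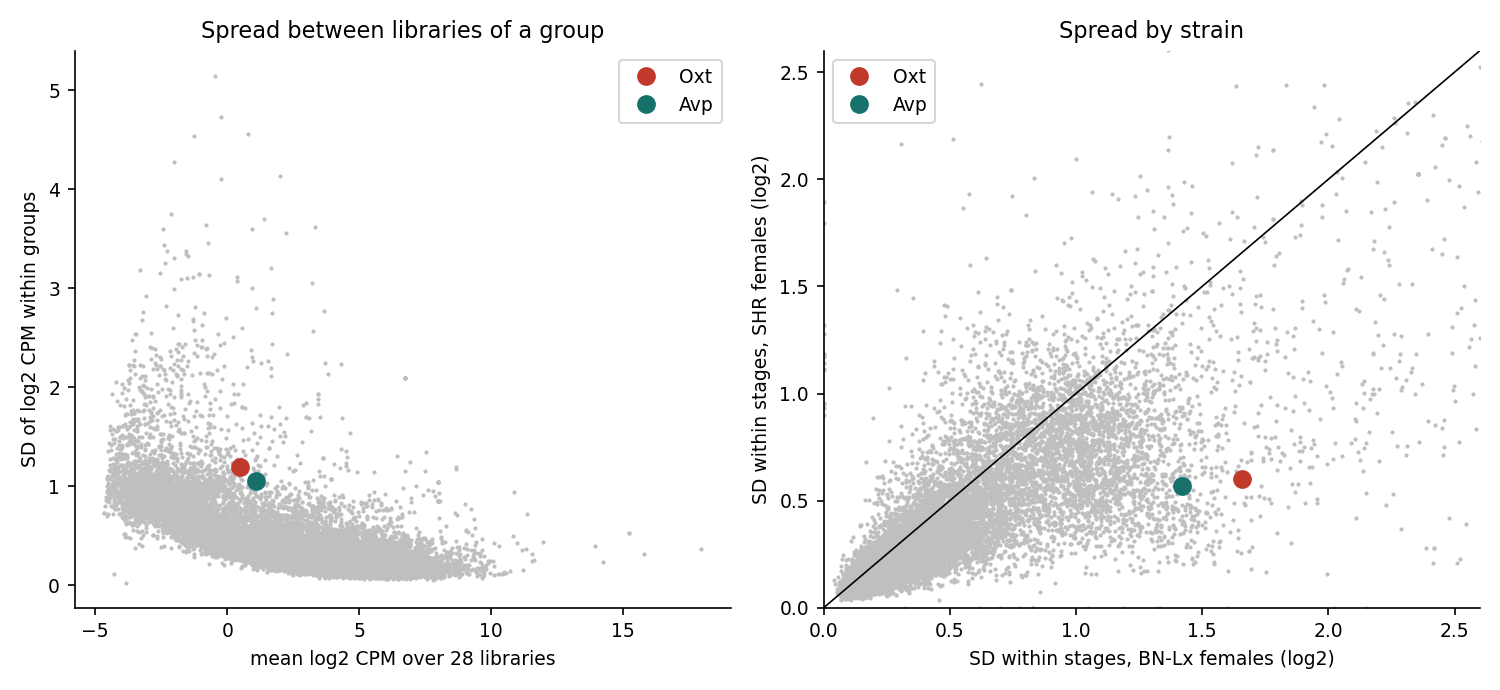
Left, within-group SD of log2 CPM against mean log2 CPM for the 18134 genes tested, with Oxt and Avp marked. Right, the SD within stages in SHR females against that in BN-Lx females, where Oxt and Avp lie at 0.603 against 1.66 and 0.569 against 1.42, and 141 genes fall outside the panel limit of 2.6.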

How the data were processed

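Total RNA of whole brain was sequenced as stranded, ribosome-depleted paired-end libraries, per the labels' protocols. The authors used cutadapt and RSEM, per the submitters' processing notes. The sources used here name no aligner, genome build or annotation. The deposited files hold expected counts and TPM, per the file headers, and FPKM that were not used. Expected counts were rounded. The 92 spike-in rows entered neither library sizes nor tests. Genes were kept with filterByExpr (count minimum 10 over 8 groups), TMM-scaled and fitted with edgeR 4.0.16 (robust quasi-likelihood, R 4.3.3) in 1 model over all 28 libraries, with terms for group and suffix and 19 residual degrees of freedom. Adjustment was by Benjamini-Hochberg over 18134 genes. Female contrasts weighted stages equally, and SEs, taken from the F statistic, are approximate. Log2 CPM used a prior count of 2. Permutation tests used 100000 resamples over libraries (scipy 1.17.1). The fit was tested on simulated data. Alternatives included DESeq2 1.42.0, limma 3.58.1, RLE scaling, no filter, each suffix alone, and leaving out each library.

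Genes and lists were chosen with earlier results of these data known. The genes named are Oxt and Avp, their neighbours, and those most like them, by rule. The lists of receptors, precursor-processing enzymes, steroid receptors and brain-region markers could not be matched, because 0 Ensembl identifiers were in the reference table. The tissue label was therefore not checked against markers, and correlations with region lists were not computed. The Poisson interval of a count covers counting error only, while edgeR's intervals include the spread between animals. The labels do not say whether animals shared a litter or a day.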

Additional observations from a re-analysis of the deposited data

Results flagged for a closer look

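SHR estrus replicate 6 had a log2 ratio of Oxt to Avp counts of 0.33, above the other 3 libraries of its group, which lay between -0.71 and -0.57. Its gap to the nearest was 0.864 of the group's range, past Dixon's critical value of 0.829. This was 1 of 18 groups of values examined, and chance flags about 1 in 20. Without it the strain difference of the ratio in females was 0.01 (permutation p = 0.971), against 0.09 with it.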

How the results depend on the processing

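Of 1786 alternative values for the 44 fitted results of Oxt and Avp, 1783 stayed on the same side of the threshold. The 3 exceptions were all Avp in the b35 libraries alone, where BN-Lx post-estrus is 1 library assumed to vary like the other groups. They were the strain-by-stage interaction (edgeR adjusted p = 0.0417, with 30% of all genes called), post-estrus against estrus in BN-Lx (-2.44, adjusted p = 0.0328, 12.8% called) and any stage difference in BN-Lx (adjusted p = 0.0422, 15.5% called), where 0% were called over all 28 libraries. Of the 36 log2 fold changes, none of which was called, 11 turned their sign when some library was left out and 19 under some other setting. The fold moved by over 1.5 times for 10 and 26 of them. In b37 alone the interaction had an adjusted p of 0.937, and over the 28 fits that each left out a library it ran from 0.630 to 1. DESeq2 and limma called neither gene in any comparison. The correlation of Oxt with Avp ran from 0.735 to 0.807 when libraries were left out in turn, and no longer passed in b35 (0.503) or b37 (0.846), which hold fewer libraries. The strain difference in the spread of Oxt ran from -0.696 to -0.317 when libraries were left out in turn. It passed unadjusted without SHR pre-estrus replicate 11 (permutation p = 0.0477) or replicate 8 (p = 0.0489). Leaving 1 library out gives its group an odd number, so that 1 library is itself the median and has no deviation. In b37 the difference was -1.17, with SHR post-estrus a single library without deviation by construction. What else moved these values was not tested.

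With the replicate number of the labels as a replicate block, 6 residual degrees of freedom remained, and the female strain difference was -1.06 for Oxt (adjusted p = 0.801) and -0.42 for Avp (adjusted p = 1). The strain difference of Oxt at pre-estrus became -2.77 and at post-estrus -0.33, and Avp in males over females became 3.55 over both strains (adjusted p = 0.239), 3.36 in SHR and 3.74 in BN-Lx. The block changed no call. Libraries with the same number in other groups did not deviate together (median r = -0.12 over 18 pairs, against 0.01 over 322 other pairs), so the number was not taken to pair animals. With the number in the sample descriptions as a block, 12 residual degrees of freedom remained and strain contrasts within females and within males gave no value. The strains share no such number, and all SHR pre-estrus libraries carry the same one. Strain, and in part stage, is thus confounded with it. None of the 34 values that could be fitted was called. Without the 3 libraries least alike the rest, chosen after seeing the data, the female strain difference was -0.155 for Oxt and -0.22 for Avp. Counts as low as 2 for Oxt limit its values in BN-Lx post-estrus.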
